A study of Mus musculus with 6 samples.

Results

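The mouse mitochondrial genome encodes a small set of mRNAs for subunits of the respiratory chain, and 10 of them are described here: mt-Nd1, mt-Nd2, mt-Nd3, mt-Nd4 and mt-Nd5 of complex I, mt-Cytb of complex III, mt-Co1, mt-Co2 and mt-Co3 of complex IV, and mt-Atp6 of complex V. They were chosen by name and chromosome, as the contigs of the mitochondrial chromosome (MT) that carry these symbols, and they make up 10 of the 12114 contigs in the deposited tables. Their poly(A) tails and read counts were compared between pachytene/diplotene (P/D) spermatocytes, which are cells in meiotic prophase, and round spermatids (RS), the haploid cells that follow meiosis. All cells came from the testes of adult C57BL/6J/B6 male mice without a transgene or treatment named in the labels, and were sorted by flow cytometry on DNA staining and light scatter. Each cell type had 3 samples, and each sample combined the mRNA of 3 mice. The 3 spermatocyte samples shared 1 multiplexed library, and another held the 3 RS samples. Cell type and library therefore cannot be told apart in any value below. A sample is a pool, so p-values measure the spread between pools and not between mice.

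Mitochondrial mRNAs are transcribed as long precursors from the mitochondrial DNA, mostly from the heavy strand. Excision of the tRNAs that lie between the coding sequences frees most of the individual mRNAs. A dedicated poly(A) polymerase of the matrix, encoded by the nuclear gene Mtpap, then adds a short tail, whereas nuclear mRNAs receive long tails in the nucleus and lose or regain adenosines in the cytoplasm. In some mitochondrial mRNAs the coding sequence stops before the termination codon is complete, and the first adenosines of the tail finish the codon. The mitochondria of male germ cells change shape and number through meiosis and spermiogenesis, and the respiratory chain they carry is built from both mitochondrial and nuclear gene products.

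The 3′ ends of 6 coding sequences are shown because an mRNA without a 3′ untranslated region carries its tail directly after them. The sequences were taken from the RefSeq copy of the GRCm38 genome, 5′ to 3′ on the plus strand, as the last 30 bases of the annotated coding sequence. The capitals mark the termination codon or the single T that stands in its place.
mt-Co3, MT:9361-9390: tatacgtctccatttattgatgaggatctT
mt-Nd4, MT:11515-11544: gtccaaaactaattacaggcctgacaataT
mt-Cytb, MT:15259-15288: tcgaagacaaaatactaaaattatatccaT
mt-Co1, MT:6843-6872: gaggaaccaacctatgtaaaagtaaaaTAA
mt-Co2, MT:7667-7696: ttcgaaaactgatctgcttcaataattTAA
mt-Nd1, MT:3678-3707: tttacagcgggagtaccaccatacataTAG

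The first 3 sequences end in a single T, and the annotation states that the tail completes their stop codon. mt-Co1 and mt-Co2 encode a full TAA, as do mt-Atp6, mt-Nd3 and mt-Nd5. Where an mRNA ends at such a codon, its final 2 A cannot be told from tail adenosines by sequence. Where each mRNA ends was not tested. The next tRNA gene lies 505 nt beyond mt-Nd5 and 783 nt beyond mt-Atp6, and those after mt-Nd5 and mt-Co1 lie on the other strand. mt-Nd1 and mt-Nd2 end in TAG, and the last 2 bases of each lie within the next tRNA gene on the same strand, mt-Ti and mt-Tw respectively. mt-Co3 and mt-Cytb end at the base before the next tRNA gene on that strand, mt-Tg and mt-Tt.

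Direct RNA sequencing reads native RNA molecules through a nanopore from the 3′ end, so each read gives 1 tail. The samples held between 244004 and 474688 reads, of which 27123 lay on the 10 mitochondrial mRNAs. Of these, 6 reads were also listed on another contig. The deposited counts equalled the number of reads in the tail table for each of the 10. Marker genes of round spermatids took 0.0792 to 0.105% of reads in the P/D samples and 0.349 to 0.380% in RS, and those of elongating spermatids 0.193 to 0.260% and 2.44 to 2.94%. The P/D markers took 0.274 to 0.287% and 0.196 to 0.207%. Each list of spermatogonial, Sertoli, Leydig and other somatic markers held at most 7 reads in any sample. The list of leptotene and zygotene markers, of earlier meiotic prophase, had reads on only 1 of its 7 genes. It held 22, 47 and 37 reads in P/D replicates 1, 2 and 3 and 16, 29 and 12 in RS replicates 1, 2 and 3. The study notes that its P/D gate held other cells too and was less pure than the RS gate, and the part of that in the differences below was not tested.

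Tails of the mitochondrial mRNAs were short and uniform in both cell types. In P/D replicates 1, 2 and 3 the median tail of the pooled mitochondrial reads was 63.3, 63.5 and 64.0 nt, and in RS replicates 1, 2 and 3 it was 68.3, 66.7 and 69.7 nt. All RS samples lay above all P/D samples, and the means differed by 4.62 nt (63.6 ± 0.367 against 68.2 ± 1.48 nt, SD, n = 3 each; exact two-sided permutation test, p = 0.1, the lowest value that 3 against 3 samples can give). The interquartile range, the width that holds the middle reads of a sample, was 16.1 ± 0.181 nt in P/D spermatocytes (SD, n = 3) and between 16.7 and 18.2 nt in RS.

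Nuclear transcripts in the same samples had a broad distribution that moved far more. Their median tail was 93.3 to 96.1 nt in P/D spermatocytes against 157 to 160 nt in RS, with interquartile ranges of 83.6 to 89.6 nt and 55.8 to 59.8 nt. The gap between the nuclear and the mitochondrial median was 32.9, 30.5 and 29.3 nt in P/D replicates 1, 2 and 3, and in RS replicates 1, 2 and 3 it was 89.9, 89.9 and 90.8 nt. The gap was therefore wider in every RS sample than in every P/D sample, by 59.3 nt on average (30.9 ± 1.82 against 90.2 ± 0.510 nt, SD, n = 3 each; exact two-sided permutation test, p = 0.1, the smallest possible).

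**Figure D1:**
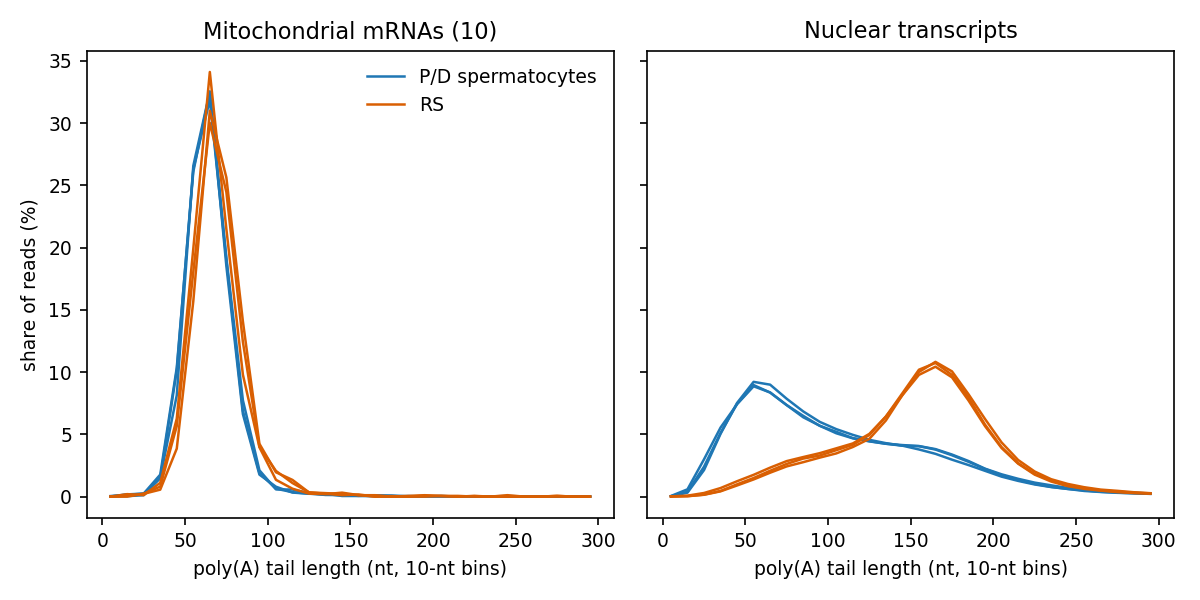
Share of reads (%) in 10-nt bins of poly(A) tail length, from 0 to 300 nt, for the 10 mitochondrial mRNAs (left) and for nuclear transcripts (right), with 1 line per sample. The mitochondrial peak lies at 60 to 70 nt in both cell types, while the nuclear peak lies at 50 to 60 nt in P/D spermatocytes and at 160 to 170 nt in RS.

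The class of 30 to 120 nt held nearly all mitochondrial reads in every sample, 98.6 to 98.9% in P/D spermatocytes against 98.3 to 98.6% in RS. The groups overlapped (two-sided exact permutation test, p = 0.2). The class of 120 to 210 nt, into which 66.7 to 68.6% of nuclear reads fell in RS, held few mitochondrial reads. It took 0.697, 0.798 and 0.849% of them in P/D replicates 1, 2 and 3 and 0.916, 1.03 and 1.28% in RS replicates 1, 2 and 3 (exact two-sided permutation test, p = 0.1, the smallest possible). The RS values rest on 16, 26 and 23 reads, and their 95% Wilson intervals reach from 0.565 to 1.92%, so they overlap those of the P/D samples, which reach from 0.518 to 1.07%. These intervals cover counting error only. No read of mt-Nd5 reached 120 nt in any sample, and of the reads of mt-Nd1 and mt-Nd3 none did in RS.

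Each of the 10 mRNAs had a higher mean tail in RS than in P/D spermatocytes, and none of these differences passed the threshold in the fit over all transcripts. The differences ran from 2.09 nt for mt-Cytb to 8.87 nt for mt-Nd4, with a median of 5.29 nt, beside a median of 37.4 nt over the 6990 transcripts tested (limma, Benjamini-Hochberg adjusted p from 0.201 to 0.757 for the 10). In the same fit, 54.2% of all tested transcripts were longer in RS and 1.69% were shorter, against 0 of 10 in either direction here. For 9 of the 10 every RS mean lay above every P/D mean, the exception being mt-Cytb, and this held for 63.6% of the 6464 tested transcripts that had reads in all samples. The highest upper 95% bound of a difference was 21.7 nt, for mt-Nd4, below the median difference of all tested transcripts.

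The call depends on how the spread is estimated. limma drew the variance of each transcript toward a value common to all transcripts, of which 773 of 6990 had 50 reads or more in each sample, and the standard errors of the 10 mRNAs were 5.10 to 5.38 nt, whereas their replicate SDs were 0.618 to 3.70 nt. With the variance allowed to follow the number of reads, 5 of the 10 were called longer, namely mt-Co1, mt-Co2, mt-Co3, mt-Atp6 and mt-Nd4, and 55.3% of all transcripts were.

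Among the subunits of complex IV, the terminal oxidase of the chain, mt-Co3 had the longest tails of all 10 mRNAs. Its mean was 70.3, 71.9 and 71.6 nt in P/D replicates 1, 2 and 3, and in RS replicates 1, 2 and 3 it was 77.6, 78.1 and 79.8 nt. The groups did not overlap, and the difference was 7.24 nt with a standard error of 5.10 nt (limma, adjusted p = 0.275; 0.00427 with the variance following reads). mt-Co1, which encodes the catalytic subunit, had means of 68.1, 68.3 and 69.3 nt in P/D replicates 1, 2 and 3, and in RS replicates 1, 2 and 3 they were 72.0, 71.0 and 74.3 nt. The RS samples again stood apart, by 3.87 nt (standard error 5.13 nt; limma, adjusted p = 0.554; 0.0197 with the variance following reads). mt-Co2, whose product receives electrons from cytochrome c, had the shortest tails of the complex, 60.4 to 61.5 nt in P/D spermatocytes against 63.1 to 66.7 nt in RS.

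Over all 6 samples mt-Atp6, a subunit of the proton channel of ATP synthase, averaged 71.8 nt, between mt-Co3 (74.9 nt) and mt-Co1 (70.5 nt). Its mean tail was 67.6, 68.5 and 68.8 nt in P/D replicates 1, 2 and 3, and in RS replicates 1, 2 and 3 it was 76.8, 72.6 and 76.7 nt. All RS samples were higher, and the interquartile range was 13.6 to 14.3 nt in P/D spermatocytes against 15.4 to 20.9 nt in RS, without overlap. The difference in the mean was 7.07 nt (standard error 5.19 nt; limma, adjusted p = 0.293; 0.0102 with the variance following reads).

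mt-Cytb, the cytochrome b of complex III, had the smallest difference in mean tail, though with medians in place of means mt-Nd5 was lower (2.62 nt against 2.91 nt for mt-Cytb). Its means were 64.2, 64.6 and 68.0 nt in P/D replicates 1, 2 and 3, and in RS replicates 1, 2 and 3 they were 67.6, 66.1 and 69.4 nt. The difference was 1.39 nt without P/D replicate 1, 3.28 nt without P/D replicate 3 and 1.24 nt without RS replicate 3. P/D replicate 3 lay above RS replicates 1 and 2, so the groups overlapped (2.09 nt, standard error 5.21 nt; limma, adjusted p = 0.757; 0.560 with the variance following reads).

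The 5 complex I mRNAs, which encode membrane subunits that couple electron transfer to proton pumping, held the largest difference in mean tail, that of mt-Nd4, and the shortest tails. For mt-Nd4 the mean tail was 58.2, 60.1 and 59.3 nt in P/D replicates 1, 2 and 3, and in RS replicates 1, 2 and 3 it was 66.5, 66.3 and 71.5 nt. RS replicate 3 had the highest mean but the lowest median of the RS samples (62.1 nt against 62.9 and 63.1 nt), and among its 81 reads was 1 of 418 nt. With medians in place of means the difference was 5.02 nt, below that of mt-Co3 (5.89 nt). By either measure no RS sample fell among the P/D samples (means, 8.87 nt, standard error 5.26 nt; limma, adjusted p = 0.201; 0.0191 with the variance following reads). mt-Nd1 had the shortest mean of the 10, 53.5 to 54.9 nt in P/D spermatocytes against 55.2 to 58.3 nt in RS. mt-Nd2 reached 52.6 to 57.5 nt and 59.0 to 64.2 nt, and mt-Nd3 60.1 to 62.6 nt and 63.2 to 66.8 nt. mt-Nd5 went from 55.0 to 57.6 nt up to 57.9 to 64.3 nt, but its RS means rest on 6, 11 and 8 reads. Medians gave differences of 3.44 nt for mt-Nd2 and 2.62 nt for mt-Nd5, where means gave 6.15 and 5.89 nt. The annotation states that the tail completes the stop codon of 3 mRNAs, mt-Co3, mt-Nd4 and mt-Cytb. These 3 included the largest and the smallest difference by means. By medians the largest of the 10 was that of mt-Co3 and the smallest that of mt-Nd5.

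**Figure D2:**
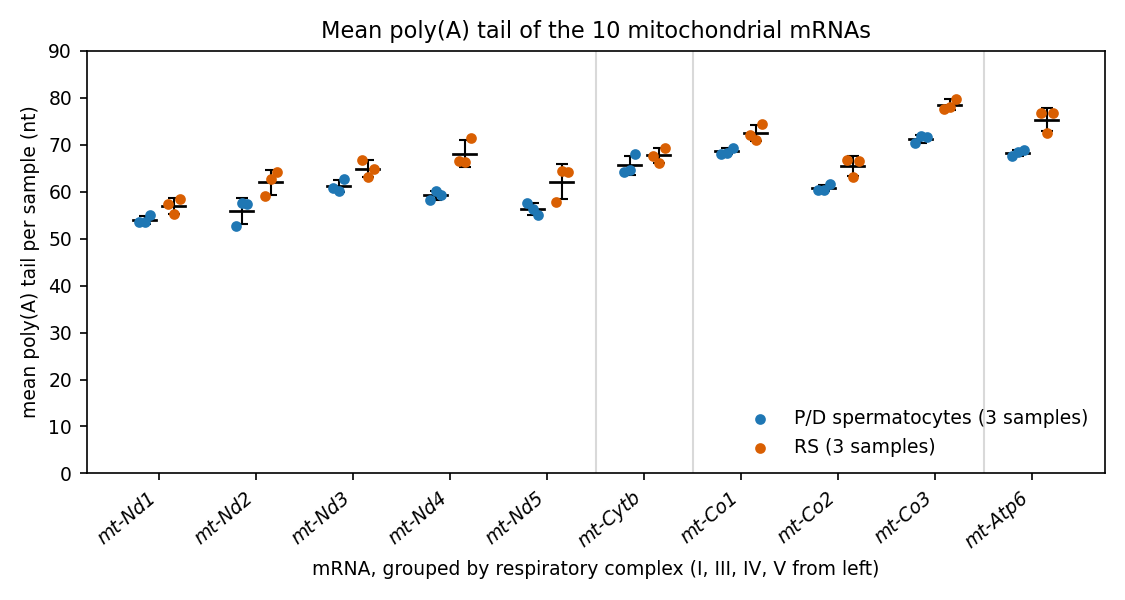
Mean poly(A) tail (nt) of each mitochondrial mRNA, with 1 point per sample, a line at the mean and bars of 1 SD over 3 samples, grouped by respiratory complex. The RS points lie above the P/D points for 9 of the 10 mRNAs and overlap them for mt-Cytb, and all means lie between 52.6 and 79.8 nt.

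The mRNAs kept much of their order of tail length from sample to sample. By the mean over all 6 samples, that order from long to short was mt-Co3, mt-Atp6, mt-Co1, mt-Cytb, mt-Nd4, mt-Co2, mt-Nd3, mt-Nd5, mt-Nd2 and mt-Nd1, and 36 of the 45 pairs had the same order in all 6 samples. The longest and the shortest mean within a sample were 16.6 to 23.0 nt apart, more than the change of any of the 10 between cell types. None of the 9 neighbouring pairs in this order passed after adjustment, with adjusted p from 0.141 to 0.844 (two-sided exact sign-flip test over 6 samples). The smallest unadjusted p is 0.03125, so 1 pair alone could not pass, and the order came from the same means. The result therefore does not show that neighbours are alike. The pairs mt-Nd4 over mt-Co2 and mt-Co2 over mt-Nd3 each held in only 2 of 6 samples. mt-Co3 was longer than mt-Atp6, and mt-Co1 than mt-Cytb, in 6 of 6 samples, by 3.07 ± 1.51 and 3.85 ± 1.35 nt (SD).

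The tail profile was then set beside that of nuclear transcripts that had 50 reads or more in each sample. The distance used was the share of reads, in percentage points, that would have to change bins to turn one profile into the other. The 3 closest contigs, at 13.2, 16.4 and 23.6 points, were Gm10925, Gm28661 and Gm28437, which are annotated as nuclear but are near-identical copies of mitochondrial sequence, described below. After the copies were set aside, 764 nuclear transcripts remained, with distances from 39.3 points for Amn1 to 94.4 points and a median of 69.5 points. Next after Amn1 stood Hagh at 41.0 points. Among the mitochondrial mRNAs themselves, each set against the pooled profile, the distance was 8.11 for mt-Cytb to 38.4 points for mt-Nd1. The pooled profile holds their own reads, and no read minimum was set for them. Their distances were thus not measured like those of the nuclear transcripts. The narrowest interquartile range among the 764 was 31.4 nt in P/D spermatocytes against 28.3 nt in RS.

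Nuclear transcripts with tails as short in P/D spermatocytes were few. Of the 764 nuclear transcripts, 9 had a P/D mean within the range of the 10 mitochondrial mRNAs. All 9 were called longer in RS (limma), by 27.5 nt for Rps19 to 65.3 nt for Rpl27a, both of which encode ribosomal proteins. They were picked by their low P/D means, which also enter the difference. In a separate fit of the transcripts with 50 reads or more in each sample, 91.2% were called longer. In RS, 2 of the 764 had a mean at or below that of mt-Co3, chosen here after their values were seen: Amn1, with 74.5 ± 2.77 nt in P/D spermatocytes against 75.2 ± 1.82 nt in RS, and Nxt1, with 99.8 ± 6.07 and 73.3 ± 7.16 nt (SD, n = 3 each).

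**Figure D3:**
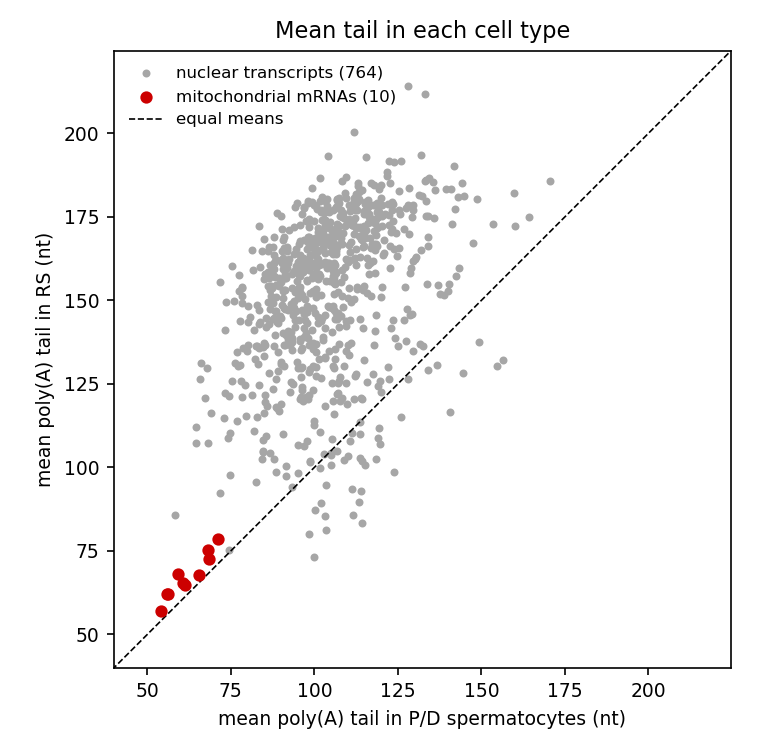
Mean poly(A) tail (nt) in P/D spermatocytes (x axis) against that in RS (y axis), each the mean of 3 samples, for 764 nuclear transcripts that had 50 reads or more in each sample (grey) and the 10 mitochondrial mRNAs (red). The 10 lie at the lower left, just above the dashed line of equal means, and most nuclear transcripts lie well above that line.

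The share of reads on the mitochondrial mRNAs was lower in RS. It was 2.53, 2.21 and 3.00% of all reads in P/D replicates 1, 2 and 3 and 0.551, 0.531 and 0.503% in RS replicates 1, 2 and 3. All RS samples were below all P/D samples, and the P/D mean was 4.88 times the RS mean (2.58 ± 0.395 against 0.529 ± 0.0243%, SD, n = 3 each; exact two-sided permutation test, p = 0.1, the smallest possible). The 95% Wilson intervals of the single samples lay between 2.16 and 3.06% for P/D spermatocytes and between 0.480 and 0.578% for RS. Counts are relative to all reads of a library, and in bulk samples fewer cells of a type and less RNA per cell cannot be told apart.

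All 10 mRNAs fell individually. Each was lower in RS in edgeR's quasi-likelihood test (adjusted p from 6.83e-23 for mt-Co1 to 1.94e-06 for mt-Nd5), and each was lower in all 3 RS samples than in any P/D sample. Over the 6005 transcripts tested, 30.8% were called lower in RS, 32.6% were called higher, and 34.2% had all RS levels below all P/D levels. The log2 fold change (RS over P/D) was −1.93 to −2.82 with a median of −2.20, beside a median of −0.03 over all transcripts tested. A decrease at least as large as that of mt-Nd5, the smallest of the 10, was seen in 393 other transcripts.

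In complex IV, mt-Co1 had 1944, 2336 and 2601 reads in P/D replicates 1, 2 and 3 and 601, 884 and 616 in RS replicates 1, 2 and 3. As CPM, the counts scaled to the total reads of the sample, this was 8396 ± 1044 against 1830.2 ± 88.3 (SD, n = 3 each), 4.46-fold lower in RS by the edgeR fit (log2 fold change −2.16, standard error 0.09). mt-Co2 went from 6876 ± 1082 to 1358 ± 33.3 CPM, and mt-Co3 from 3101 ± 439 to 639 ± 62.6 CPM, decreases of 4.92-fold and 4.73-fold. mt-Atp6 of complex V fell 4.49-fold, from 2701 ± 521 to 585 ± 19.7 CPM.

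mt-Cytb of complex III had the largest fitted decrease together with mt-Nd2 and mt-Nd3 of complex I, from which it was not distinguishable. The log2 fold changes were −2.82, −2.81 and −2.74 (standard errors 0.15, 0.20 and 0.19). mt-Cytb had 257, 280 and 352 reads in P/D replicates 1, 2 and 3 and 51, 79 and 42 in RS replicates 1, 2 and 3. This was 1089 ± 194 against 148 ± 26.6 CPM, a 7.06-fold decrease (edgeR, adjusted p = 1.50e-19). In complex I, mt-Nd2 had 113, 118 and 152 reads in the P/D replicates and 27, 27 and 20 in the RS replicates, a 6.99-fold decrease in the fit. mt-Nd3 had 137, 139 and 212 and then 32, 39 and 28 reads, a 6.69-fold decrease. The other 7 mRNAs had fitted decreases between 3.81-fold (mt-Nd5) and 4.92-fold (mt-Co2). mt-Nd1 fell 4.45-fold and mt-Nd4 4.27-fold. mt-Nd5 was the scarcest, with 21 to 27 reads per P/D sample and 6 to 11 per RS sample.

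**Figure D4:**
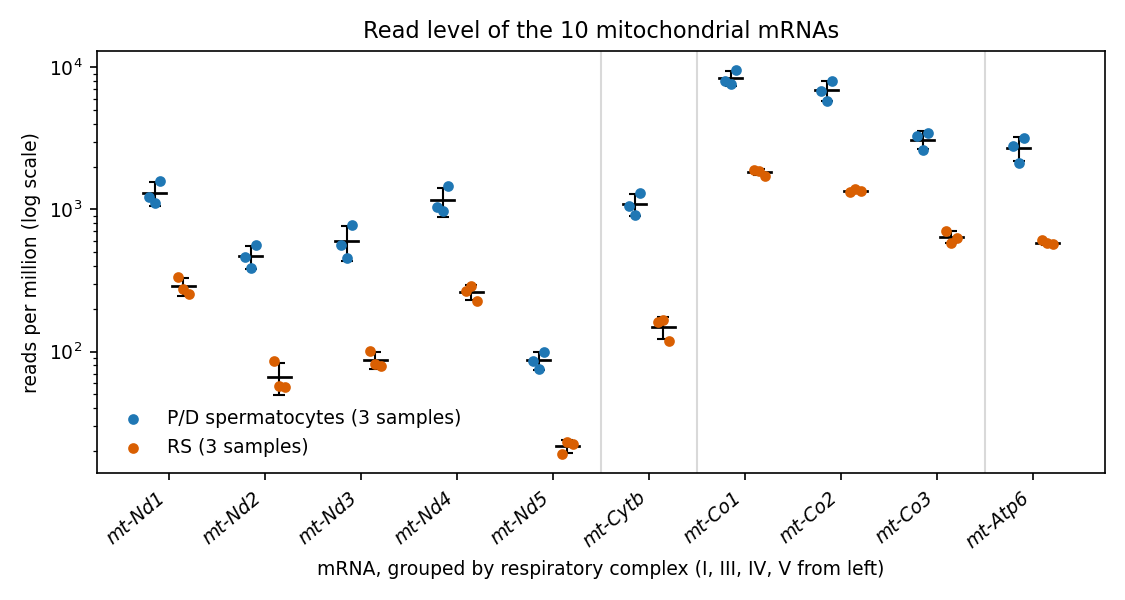
CPM (log axis) of each mitochondrial mRNA, with 1 point per sample, a line at the mean and bars of 1 SD over 3 samples. All RS points lie below all P/D points of the same mRNA, from 3.81-fold lower in the fit for mt-Nd5 to 7.06-fold lower for mt-Cytb.

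Shares within the mitochondrial reads do not depend on nuclear reads. mt-Co1 and mt-Co2 were the most read in every sample, with 32.7 ± 1.63% and 26.6 ± 0.300% of mitochondrial reads in P/D spermatocytes against 34.6 ± 0.372% and 25.7 ± 1.32% in RS. Divided by coding length, mt-Co2 came first (34.9% against 19.0% for mt-Co1 in P/D spermatocytes), and mt-Co3 and mt-Atp6 stood at 13.8 and 13.7%. With the reads of the chromosome 1 copies described below added, these became 31.3, 15.6, 19.4 and 18.2%, so mt-Co3 and mt-Atp6 then stood above mt-Co1. A nanopore read is 1 molecule whatever its length, and the division by length is given only as a second scale. The share of mt-Cytb was 4.16, 4.14 and 4.33% in P/D replicates 1, 2 and 3 and 2.92, 3.13 and 2.35% in RS replicates 1, 2 and 3, so the groups did not overlap. Shares were lower without overlap also for mt-Nd3 (2.29 ± 0.284 against 1.65 ± 0.161%) and mt-Nd2 (1.82 ± 0.0642 against 1.24 ± 0.262%). The share of mt-Nd5 was higher without overlap (0.338 ± 0.00460 against 0.409 ± 0.0567%), but its RS values rest on 6, 11 and 8 reads. RS replicate 1 stood at 0.344%, beside 0.340% in P/D replicate 1. For these 4 the two-sided exact permutation test gave p = 0.1, the smallest possible, and for the other 6 the groups overlapped. The whole make-up differed by 3.55 percentage points between cell types, measured as the share of reads that would have to change gene, while pairs of samples of 1 cell type differed by 2.37 to 3.60 points. The first value is between means of 3 samples and the others between single samples, so they are set side by side with no comparison.

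Of the mitochondrial mRNAs, 6 share sequence with a stretch of chromosome 1 that holds pseudogene copies of mitochondrial DNA. On GRCm38, in the order of the minus strand, these are Gm29216 (chr1:24615706-24616197) for mt-Co1, Gm28661 (chr1:24614885-24615565) for mt-Co2, Gm10925 (chr1:24613974-24614651) for mt-Atp6, Gm28437 (chr1:24613189-24613971) for mt-Co3, Gm28438 (chr1:24612775-24613119) for mt-Nd3 and Gm28439 (chr1:24611535-24612410) for mt-Nd4. All are annotated as unprocessed pseudogenes. The copies of mt-Co2, mt-Atp6, mt-Co3 and mt-Nd4 were 100% identical over 681, 678, 783 and 876 bases. That of mt-Co1 was 99.79% identical over 483 bases and that of mt-Nd3 99.71% over 345. The copy of mt-Nd4 ends at base 876 of its 1378, without the 3′ part.

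Reads that lie within the shared stretches of these 6 mRNAs and their copies cannot be told apart with certainty. On the copies the aligner placed 1351, 1357 and 1789 reads in P/D replicates 1, 2 and 3. In RS replicates 1, 2 and 3 it placed 391, 546 and 448 there. Gm28437 took 42.2 to 46.5% of the reads it shared with mt-Co3, and Gm10925 took 37.9 to 43.9% of those it shared with mt-Atp6. The copy's part was 9.30 to 15.9% for mt-Nd3, 10.4 to 14.9% for mt-Co2, 3.03 to 5.23% for mt-Co1 and 1.22 to 3.50% for mt-Nd4. Levels of mt-Co3 and mt-Atp6 relative to the rest are thus the most affected by how reads were assigned. Tails on the copies were close to those on the mRNAs: on Gm28437 they averaged 72.4 ± 0.849 nt in P/D spermatocytes against 77.4 ± 1.92 nt in RS, beside 71.3 ± 0.838 and 78.5 ± 1.11 nt for mt-Co3. With the copies added to their mRNAs, the mitochondrial share was 3.13 ± 0.502% in P/D spermatocytes against 0.650 ± 0.0232% in RS (SD, n = 3 each), and mt-Co3 made up 17.6% of mitochondrial reads in P/D spermatocytes in place of 12.1%. All 10 mRNAs remained lower in RS and none was called longer.

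**Figure D5:**
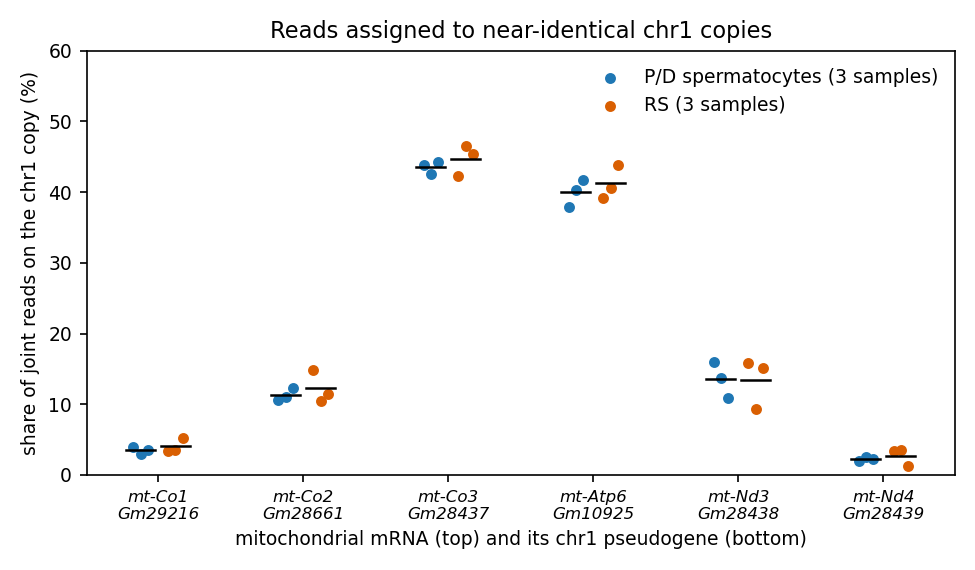
Share (%) of the reads on each of 6 mitochondrial mRNAs and its chromosome 1 pseudogene together that were assigned to the pseudogene, with 1 point per sample and a line at the mean of 3 samples. The share is near 40% or above for mt-Co3 and mt-Atp6, at most 15.9% for the others, and overlaps between cell types for every pair.

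The only other contig of the mitochondrial chromosome in the tables was mt-Nd6, the complex I subunit encoded on the light strand. It had 8, 12 and 22 reads in P/D replicates 1, 2 and 3 and 1, 2 and 5 in RS replicates 1, 2 and 3, with mean tails of 48.1 to 52.3 nt and 51.9 to 58.6 nt. Other mitochondrial genes were not analysed here.

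Nuclear genes for the same complexes had larger differences in tail and smaller ones in level. Of 87 tested transcripts of nuclear-encoded subunits of complexes I, III, IV and V, 75 were longer in RS, 2 were shorter and 10 did not pass (limma, background 54.2% longer), and their median difference was 56.0 nt beside 37.4 nt over all transcripts. That background covers all tested transcripts, most of them with fewer reads. Among those with 50 reads or more in each sample, fitted separately, 91.2% were longer, and the subunits were not matched for depth. All 22 transcripts of complex V, 33 of 38 of complex I, 11 of 12 of complex III and 9 of 15 of complex IV were longer. The 87 transcripts came from 70 genes, and those of 1 gene can share reads, so they are not separate evidence. In accumulation, 62 of 86 were lower, 2 higher and 22 did not pass (edgeR, background 30.8% lower), with a median log2 fold change of −0.79. Transcripts for proteins of the mitochondrial ribosome, which translates only the mitochondrial mRNAs, were longer in 50 of 67 cases, from 57 genes, with none shorter (median difference 59.4 nt). In level, 41 of 64 were lower and 3 higher (median log2 fold change −0.77).

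The nuclear factors that make and tail mitochondrial RNA were thinly covered. Slirp, whose product binds mitochondrial mRNAs together with that of Lrpprc, had a mean tail of 116 ± 4.54 nt in RS (SD, n = 3; 31.4 nt longer than in P/D spermatocytes, standard error 5.87 nt; limma, adjusted p = 0.00490), and its level did not pass the test (log2 fold change −0.19, standard error 0.17; edgeR, adjusted p = 0.333). Lrpprc itself had 4 to 10 reads per P/D sample and 3 to 9 per RS sample, and Mtpap, the mitochondrial poly(A) polymerase, had 5 to 6 and 3 to 5, too few for either test. Supv3l1, the helicase of the mitochondrial RNA degradosome, had 2 to 8 and 3 to 6 reads. Pnpt1, the ribonuclease that works with this helicase, and Polrmt, the mitochondrial RNA polymerase, had no value here. Of the 8 tested transcripts for mitochondrial RNA processing, polyadenylation and decay, 5 were longer, beside 54.2% of all transcripts, and of the 3 tested for accumulation, 2 were lower, beside 30.8%.

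Transcripts of Tfam, a gene whose product packages mitochondrial DNA and activates its transcription, were higher in RS. Which protein each of these transcripts encodes was not tested. ENSMUST00000092430 had 1, 2 and 3 reads in P/D replicates 1, 2 and 3. In RS replicates 1, 2 and 3 it had 12, 19 and 16. All RS samples were higher (log2 fold change 2.47, standard error 0.47; edgeR, adjusted p = 1.58e-05, against 32.6% of all transcripts called higher). The Tfam transcript ENSMUST00000105432 had 1, 1 and 0 reads in P/D replicates 1, 2 and 3. In RS replicates 1, 2 and 3 it had 22, 37 and 28 (edgeR, log2 fold change 4.80, adjusted p = 6.43e-10). For ENSMUST00000145220 the log2 fold change was 3.1 (edgeR, adjusted p = 1.06e-06). Of the 7 tested transcripts of the list of mitochondrial transcription and nucleoid factors, 4 were higher and 1 was lower. Of the 4, 3 were isoforms of Tfam that share sequence and so can share reads.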

How the data were processed

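Native poly(A) RNA of 3 P/D and 3 RS samples, each a pool of 3 mice, was sequenced on nanopore R9 flow cells. The authors basecalled with Guppy, aligned to GENCODE transcripts of GRCm38 with minimap2 and estimated tails with Nanopolish; the submitters' processing notes name minimap2 2.20-r1061 and mm10. The read counts the authors deposited per contig were raw, not normalized, and a second table gave each read's tail in nt. Mean tails per sample were tested with limma 3.58.1 for transcripts with at least 10 reads in 2 replicates of a cell type and a mean in 2 of each, and counts with edgeR 4.0.16 (TMM, filterByExpr, quasi-likelihood), in R 4.3.3. P-values were adjusted by the Benjamini-Hochberg method over all transcripts tested (threshold 0.05), and DESeq2 1.42.0 was tried as an alternative. Single values were compared with exact permutation tests in scipy 1.17.1 (Python 3.11.15). Fits were tested on simulated data. Depth was 244004 to 474688 reads per sample.

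The mRNAs and gene lists were chosen with earlier results of these data known. All 10 mRNAs are named, along with 7 nuclear factors of mitochondrial RNA, counts over the lists, and the 5 nuclear contigs closest in tail profile; Rps19 and Rpl27a were chosen after their values were seen. Chromosome 1 copies were found by aligning the GENCODE vM21 transcripts. Alternatives were other filters, scales, class bounds, variance models, normalizations, the replicate number as a block and leaving out each sample. After the data were examined, the copies were added to their mRNAs and the block was combined with the variance trend.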

Additional observations from a re-analysis of the deposited data

How the results depend on the processing

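All 10 mRNAs were lower in RS under every count setting tried: DESeq2, RLE factors, library sizes only, factors without mitochondrial contigs, no filter, the replicate block, the copies added and each sample left out. None was called shorter in any tail fit. The number called longer in RS, 0 in the report, was 8 with the methods' two-tailed test unadjusted (53.6% of all transcripts tested) and 5 after adjustment (46.7%), 5 with the variance trend on reads (55.3%), 5 with that trend and the replicate block together (53.8%), 1 on the log2 scale (58.9%), and 3 of the 6 tested with at least 50 reads in every sample (91.2%). It stayed at 0 with no read minimum, with medians, with tails of 10 to 300 nt only, with the replicate block alone, with the copies added and without any 1 sample. No member's difference in tail or level changed sign. The study states that each mouse gave all its cell types, without tying replicate numbers to mice. Of the same-numbered pairs, 2 of 3 correlated in their deviations by only 0.0234 and 0.0124 in mean tail, under the 0.1 asked for, and in log2 CPM the pairs gave −0.0280, 0.328 and 0.177, so the block is given as an alternative. With the numbers as pairs, the pooled median differed by 4.62 nt (exact sign-flip test, p = 0.25, the smallest for 3 pairs), and the block moved no other count of calls. Without 1 sample in turn, the median difference in tail over the 10 ran from 4.48 to 5.30 nt, the median log2 fold change from −2.33 to −2.11, the pooled median difference from 3.90 to 5.38 nt, the widening of the gap to nuclear transcripts from 58.5 to 60.3 nt, the share of reads from −2.23 to −1.84 percentage points, the class of 30 to 120 nt from −0.327 to −0.156 points, the class of 120 to 210 nt from 0.192 to 0.376 points (both classes lowest in size without RS replicate 3) and the make-up difference from 3.39 to 3.98 points. With bounds of 30 to 90 nt, the lower class held 95.7% of the mitochondrial reads in P/D spermatocytes against 91.6% in RS. mt-Nd5, with 6 to 11 reads per RS sample, is the least certain of the 10.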
